A study of Homo sapiens with 6 samples.

Results

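The genes described here are 57 components of the endosomal sorting and recycling machinery: retromer, retriever and its CCC partner complex, sorting nexins, the WASH complex, early endosome tethers, ESCRT proteins, clathrin and its adaptors, membrane-shaping proteins and regulators of the recycling endosome. They were chosen by gene symbol, with no measured value in the rule but with earlier results of these data known. All 57 were among the 60676 genes of the count table. RNA-seq was done on TC71, a human Ewing sarcoma cell line, carrying a lentiviral doxycycline (Dox)-inducible shRNA and kept as puromycin-selected polyclonal populations. One population expressed a non-targeting control shRNA (shNTC+Dox, 3 libraries) and the other an shRNA against EHD1 (shEHD1+Dox, 3 libraries). Both were treated with 0.5 µg/ml Dox for 3 days, so the drug and an induced shRNA are shared by all 6 libraries, and cells without Dox were not analysed here. Loss of EHD1, other effects of its shRNA and differences between the populations therefore cannot be told apart. A rise or fall below means a difference of shEHD1+Dox from shNTC+Dox. The sources used here do not state which EHD1 shRNA, or which mix of them, the shEHD1+Dox libraries carry, nor whether the libraries of a group came from separate cultures, and the p-values therefore measure the spread between these libraries, which may be technical.

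Cargo taken up from the cell surface by clathrin-coated vesicles reaches the early endosome, where it is sorted. Receptors marked with ubiquitin are gathered by the ESCRT complexes into vesicles that bud into the endosome and go to the lysosome, whereas retromer, retriever and the sorting nexins, with actin made under the control of the WASH complex, draw other receptors into tubules that return to the surface or to the Golgi. EHD1 is an ATPase that binds and cuts such tubules on the recycling route, and the comparison asks whether the transcripts of the machinery around it differed when EHD1 was depleted.

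EHD1 (ENSG00000110047, chr11:64851642-64888296, minus strand, GRCh38) was measured first because it checks the labels. Its level was 27.1, 28.0 and 26.4 CPM (counts scaled to library size) in the shNTC+Dox libraries and 7.55, 7.15 and 9.37 CPM in the shEHD1+Dox libraries. The groups were far apart, with 29.6% of the mean control level left after knockdown (KD), a log2 fold change of -1.76 (SE 0.12, edgeR adjusted p = 0.000136). All log2 fold changes below are shEHD1+Dox over shNTC+Dox, estimated and tested by edgeR's quasi-likelihood test with Benjamini-Hochberg adjustment over the 16785 genes that had at least 10 counts in at least 3 libraries, and a gene was called at an adjusted p below 0.05. Library totals ran from 22711235 to 30582187 counts. All 9 Ewing sarcoma markers examined, among them NKX2-2, NR0B1 and FLI1, were expressed, with a summed level of 2657 to 2737 CPM in shNTC+Dox and 2485 to 2602 CPM in shEHD1+Dox. Of these 9, STEAP1 was called lower (log2 fold change -0.43, edgeR adjusted p = 0.00443) and CD99 higher (0.33, edgeR adjusted p = 0.0293). Epithelial and endothelial markers summed to at most 0.418 CPM in any library, and the blood cell genes PTPRC and CD3E did not have enough counts to be tested, whereas CD68 was detected in every library, at 2.1 to 5.24 CPM, and was not called. The 4 genes listed as fibroblast markers did not move together. COL3A1 rose (log2 fold change 0.89, edgeR adjusted p = 0.000732), DCN fell (-1.02, edgeR adjusted p = 0.00779), COL1A1 was not called (0.16, edgeR adjusted p = 0.539) and PDGFRA was at 0 in 5 of the 6 libraries. Their sum, made mostly of COL3A1, was 190 to 234 CPM in shNTC+Dox and 356 to 414 CPM in shEHD1+Dox, and the part of these differences in the results below was not tested. In RNA from whole cultures, fewer cells of a kind and less RNA per cell cannot be told apart.

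All 57 genes passed the filter on low counts, and 15 of them differed between the groups. Transcripts of 9 genes were higher in shEHD1+Dox: BIN1, SNX2, WASHC2A, EEA1, STX12, RUFY1, CLTA, PDCD6IP and VPS35L. Transcripts of 6 genes were lower, namely VPS4A, AP1G1, GGA2, VPS35, GGA3 and VPS29. The changes were small, with log2 fold changes from -0.81 for VPS4A to 0.70 for BIN1 and standard errors of 0.059 to 0.14 over the list. The share called higher was 15.8% of the list, beside 8.59% of all genes tested and 11.5% of the 9949 genes expressed at or above the lowest level in the list, and the share called lower was 10.5%, beside 8.75% and 11.5%. Both shares lie near the background of comparably expressed genes, so the number of calls is not in itself a result about these genes. None of the 57 combined an adjusted p below 0.05 with a change of at least 2-fold under edgeR or DESeq2, a combination met by 2.82% of all genes tested with edgeR. At an unadjusted edgeR p below 0.05 there were 26 of the 57 genes. At the same threshold there were 5428 of all 16785 genes tested and 3964 of the 9949 comparably expressed genes.

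Without regard to the test, 40 of the 57 log2 fold changes were positive and 17 negative, and 15 lay within 0.1 of 0. The median was 0.12, beside 0.00080 over all genes tested. All 3 shEHD1+Dox libraries were above all 3 shNTC+Dox libraries for 24 genes, or 42.1% of the list. The share was 19.9% of all genes and 23.7% of comparably expressed genes. All 3 were below for 8 genes, or 14.04% beside 19.4% and 22.5%. The remaining 25 genes overlapped between groups. The plot of log2 fold changes by role shows that each role group held genes that were not called. By sign, all 4 genes of the retriever and CCC group and all 3 membrane-shaping genes were positive. Every other group held both signs.

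**Figure D1:**
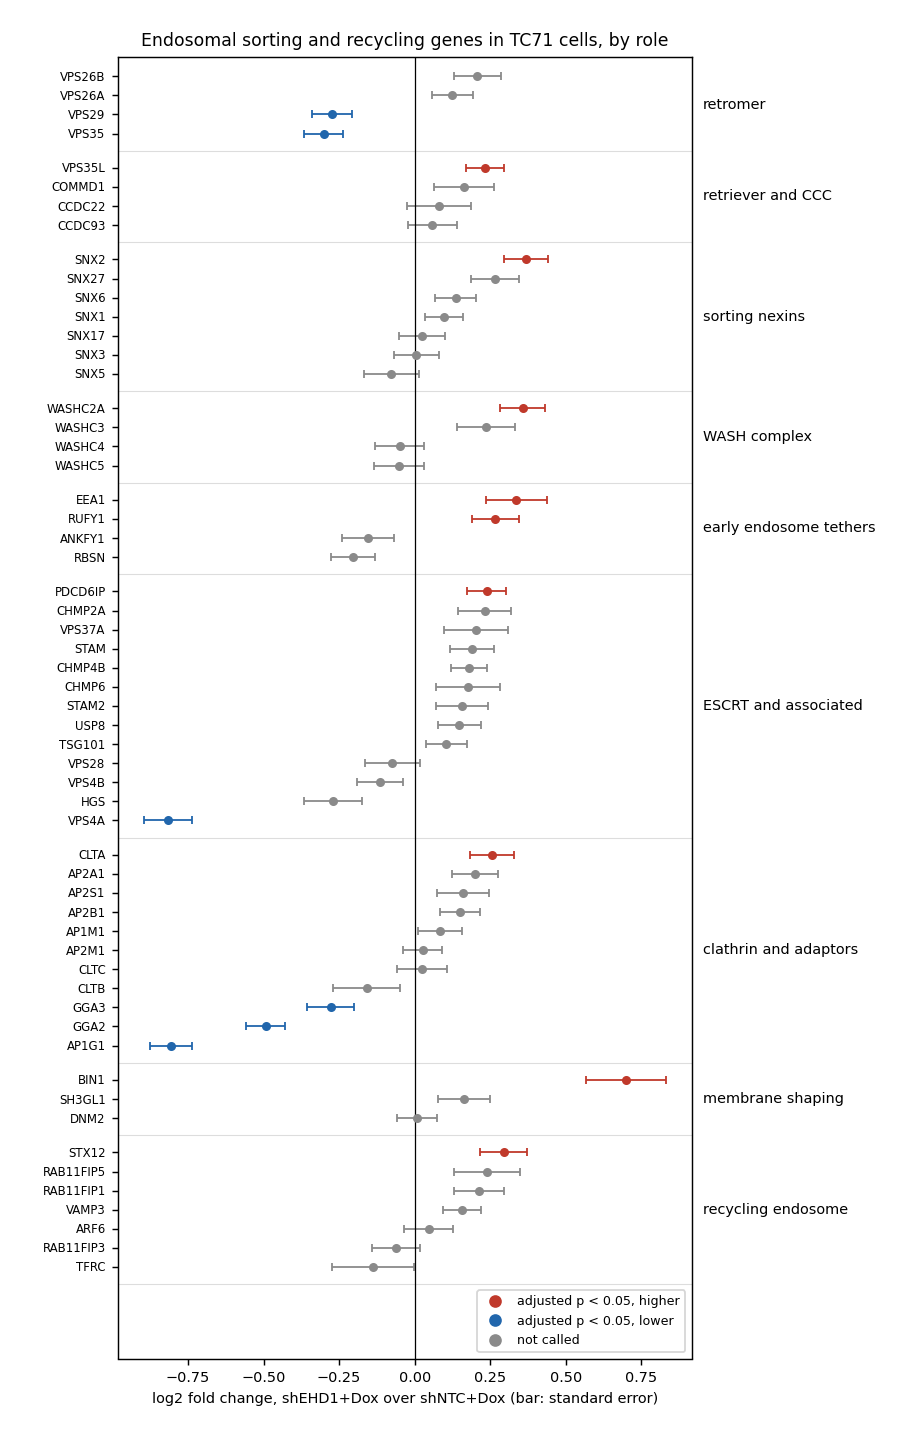
Log2 fold change of each of the 57 genes in shEHD1+Dox over shNTC+Dox (x axis, log2 scale), grouped by role; points are edgeR estimates from 3 libraries a group and bars their standard errors. The 6 genes called lower (blue) run from -0.81 to -0.27, the 9 called higher (red) from 0.23 to 0.70, and the 42 not called (grey) from -0.27 to 0.26.

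The number of calls depended on single libraries. Leaving out shEHD1+Dox replicate 1 left 1 gene called higher and 4 called lower, and leaving out shEHD1+Dox replicate 2 left 3 and 5. Without shEHD1+Dox replicate 3, without shNTC+Dox replicate 1 or without shNTC+Dox replicate 2 there were 3 of each, and without shNTC+Dox replicate 3 there were 9 and 7. Calls over all genes moved too, from 1322 genes without shEHD1+Dox replicate 3 to 3616 without shNTC+Dox replicate 3, against 2910 with all libraries. VPS4A, AP1G1, GGA2 and BIN1 kept their call under every alternative run. SNX2 and WASHC2A lost theirs only without shEHD1+Dox replicate 1 (edgeR adjusted p = 0.0553 for each), VPS35 lost its call under 4 of 11 alternatives, and the other 8 called genes under 6 to 8 each.

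The ESCRT group held the gene with the lowest log2 fold change. VPS4A (ENSG00000132612, chr16:69311350-69326939, plus strand) encodes an ATPase that takes ESCRT-III filaments apart at the end of vesicle budding. It was measured at 111, 122 and 127 CPM in shNTC+Dox and at 63.4, 68.7 and 72.2 CPM in shEHD1+Dox. The groups did not overlap, and the mean went from 120 ± 8.02 to 68.1 ± 4.48 CPM (SD, n = 3) and so decreased by 43.1% (log2 fold change -0.81, SE 0.08, edgeR adjusted p = 0.000476). VPS4B, which encodes the second VPS4 ATPase, overlapped between groups at 99.9, 108 and 109 CPM against 97.2, 105 and 90.6 CPM. Of the exon bases of VPS4A, 44.9% are shared with other genes, most of them with COG8 on the opposite strand, and the libraries do not keep the strand. COG8 itself stood at 0.16 on the log2 scale (edgeR adjusted p = 0.403), and with the counts of all genes sharing exons added, VPS4A was still lower (log2 fold change -0.41, edgeR adjusted p = 0.00378).

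PDCD6IP, which encodes ALIX, a Bro1-domain protein that links cargo and ESCRT-III, was the only one called higher of the 13 ESCRT-associated genes in the list. It rose from 200, 209 and 208 CPM to 234, 256 and 238 CPM (log2 fold change 0.24, SE 0.06, edgeR adjusted p = 0.0358). The other 10 genes of the group, apart from VPS4B, did not pass the test. Among the ESCRT-0 subunits, which bind ubiquitinated cargo first, HGS stood at -0.27 on the log2 scale (edgeR adjusted p = 0.0858), and STAM and STAM2 had 0.19 and 0.16. HGS was at 120, 117 and 148 CPM in shNTC+Dox and at 102, 111 and 107 CPM in shEHD1+Dox, with shNTC+Dox replicate 3 above the other 5 libraries, and without that library the log2 fold change was -0.16. With genes sharing its exons added, the sum passed the test (log2 fold change -0.31, edgeR adjusted p = 0.0277), but ARL16, one of the genes added, was itself called lower (-0.39, edgeR adjusted p = 0.0148). The ESCRT-I subunits TSG101, VPS28 and VPS37A had log2 fold changes of 0.10, -0.07 and 0.20, and the ESCRT-III subunits CHMP2A, CHMP4B and CHMP6 had 0.23, 0.18 and 0.18. CHMP4B, the main filament-forming subunit, was tightly measured, at 86.4, 84.7 and 84.6 CPM against 96.2, 97.5 and 96.2 CPM (edgeR adjusted p = 0.0689). USP8, a deubiquitinase that acts on ESCRT-0 and its cargo, had a log2 fold change of 0.15. Of 20 further ESCRT-associated genes tested in the wider list described below, 3 were called higher and 2 lower. These shares were 15% and 10%, beside 8.59% and 8.75% of all genes tested and 11.5% each way among comparably expressed genes. The shares were not tested against these backgrounds. CHMP2B (log2 fold change 0.50), VPS37B (0.52) and STAMBP (0.31) were higher, and VPS36 (-0.38) and PTPN23 (-0.33) lower.

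Among clathrin and its adaptors in the list, 3 genes fell, and all 3 encode adaptors or adaptor subunits that act at the trans-Golgi network and endosomes. AP1G1 (ENSG00000166747, chr16:71729000-71809201, minus strand) encodes the gamma subunit of AP-1, the complex that loads clathrin vesicles moving between these compartments. Its level was 130, 139 and 145 CPM in shNTC+Dox and 77.2, 77.8 and 81.7 CPM in shEHD1+Dox. The lowest control library was well above the highest KD library (log2 fold change -0.81, SE 0.07, edgeR adjusted p = 0.000267). ATXN1L, which shares 6.85% of the AP1G1 exon bases, had a log2 fold change of -0.06, and the sum of both was -0.51 (edgeR adjusted p = 0.00122). ATXN1L had 1952 counts beside 3423 of AP1G1 in shNTC+Dox replicate 1, so the sum mixes both genes and says little about shared reads. AP1M1, which encodes the mu subunit of the same complex, overlapped between groups at 59.9, 63.0 and 67.8 CPM against 65.3, 69.0 and 67.8 CPM. In the wider list described below, 30 further genes of this role were tested, with 5 called higher and 2 lower. These shares were 16.7% and 6.67%, beside 8.59% and 8.75% of all genes tested. Among comparably expressed genes, 11.5% were called in each direction, and the role's shares were not tested against either background. The 2 lower were AP1S3 of AP-1 (log2 fold change -0.59, edgeR adjusted p = 0.0245) and EPN2 (-0.49, edgeR adjusted p = 0.00552). The AP-1 genes AP1B1, AP1S1 and AP1S2 were not called.

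GGA2 (ENSG00000103365, chr16:23463542-23521995, minus strand) encodes a monomeric clathrin adaptor that sorts mannose 6-phosphate receptors. It was at 161, 158 and 175 CPM in shNTC+Dox and at 116, 118 and 118 CPM in shEHD1+Dox, which again left the groups apart (log2 fold change -0.49, SE 0.07, edgeR adjusted p = 0.00196). The related GGA3 fell from 53.1, 52.2 and 57.5 CPM to 41.7, 47.0 and 45.5 CPM (log2 fold change -0.28, SE 0.08, edgeR adjusted p = 0.0393). The GGA3 call was lost when counts of genes sharing its exons were added (log2 fold change -0.14, edgeR adjusted p = 0.156), whereas GGA2 summed in the same way kept its call (-0.30, edgeR adjusted p = 0.0112). MRPS7, the gene added to GGA3, shares 1.27% of its exon bases. It had 3447 counts beside 1398 of GGA3 in shNTC+Dox replicate 1, so that sum says little about GGA3. EARS2, the gene added to GGA2, shares 2.47% of the GGA2 exon bases and had 1738 counts beside 4245 of GGA2 in that library. The GGA2 sum therefore also mixes in a separate gene and says little about shared reads.

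No gene of clathrin itself or of the plasma membrane adaptor AP-2 was called lower. CLTC, which encodes the clathrin heavy chain, had the highest level of the list per kilobase of its annotated exons. It was at 951, 988 and 988 CPM in shNTC+Dox and 926, 1099 and 953 CPM in shEHD1+Dox (log2 fold change 0.02, SE 0.08). Of the light chains, CLTA rose from 102, 96.7 and 93.4 CPM to 125, 112 and 113 CPM (log2 fold change 0.26, SE 0.07, edgeR adjusted p = 0.0412), and CLTB overlapped between groups at 26.5, 24.5 and 24.3 CPM against 21.9, 19.9 and 25.7 CPM. The 4 AP-2 subunits had log2 fold changes of 0.20 for AP2A1, 0.15 for AP2B1, 0.03 for AP2M1 and 0.16 for AP2S1, with no call. Summed per kilobase over the 11 genes of the group, the level was 338.6 ± 3.797 CPM per kb in shNTC+Dox and 346 ± 4.001 CPM per kb in shEHD1+Dox (SD, n = 3).

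The retromer core is a trimer of VPS35, VPS29 and either VPS26A or VPS26B, and the subunits did not move together. VPS35 (ENSG00000069329, chr16:46656132-46689518, minus strand), the scaffold of the trimer, was at 153, 156 and 148 CPM in shNTC+Dox and at 127, 117 and 126 CPM in shEHD1+Dox. VPS29 was at 50.8, 50.7 and 51.7 CPM in shNTC+Dox and at 44.04, 41.1 and 41.5 CPM in shEHD1+Dox. Both fell without overlap, with log2 fold changes of -0.30 (SE 0.06, edgeR adjusted p = 0.0142) and -0.27 (SE 0.07, edgeR adjusted p = 0.0251). VPS26A and VPS26B were each higher in all 3 shEHD1+Dox libraries but did not pass the test, at 0.12 (edgeR adjusted p = 0.243) and 0.21 (edgeR adjusted p = 0.098). The VPS26B value turned to -0.07 when the counts of NCAPD3, which shares 3.86% of its exon bases, were added. NCAPD3 had 3530 counts beside 1361 of VPS26B in shNTC+Dox replicate 1. That sum therefore mostly follows NCAPD3 and says little about VPS26B. Summed over the 4 subunits, the per-length level was 55.1, 55.7 and 56.4 CPM per kb in shNTC+Dox and 52.7, 52.1 and 53.3 CPM per kb in shEHD1+Dox, a sum in which the KD libraries were all lower.

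Retriever pairs VPS29 with VPS35L and works with the CCC complex, which contains CCDC22, CCDC93 and the COMMD proteins. VPS35L rose from 66.8, 70.7 and 66.3 CPM to 81.3, 79.3 and 78.8 CPM (log2 fold change 0.23, SE 0.06, edgeR adjusted p = 0.0385). VPS35L shares 17.2% of its exon bases, mainly with KNOP1 on the opposite strand, and the summed counts did not pass the test (log2 fold change 0.11, edgeR adjusted p = 0.233). KNOP1 had 1299 counts beside 1757 of VPS35L in shNTC+Dox replicate 1, so this sum also mixes both genes. VPS29 therefore fell while the log2 fold changes of its alternative partners differed in sign, negative for VPS35 and positive for VPS35L. CCDC22, CCDC93 and COMMD1 had log2 fold changes of 0.08, 0.06 and 0.16 and overlapped between the groups.

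Of the 7 sorting nexins, which are membrane-bound partners of retromer and retriever, only SNX2 passed the test. SNX2, which dimerises with SNX5 or SNX6 on endosomal tubules, rose from 51.4, 48.3 and 46.4 CPM to 64.3, 64.4 and 59.8 CPM (log2 fold change 0.37, SE 0.07, edgeR adjusted p = 0.0107). SNX1, its closest relative, was at 111, 116 and 107 CPM against 122, 116 and 118 CPM, a log2 fold change of 0.10 that did not pass. SNX27, which carries a PDZ domain and links receptors to retromer, lay just outside the threshold at 66.3, 67.5 and 75.8 CPM against 82.5, 89.1 and 80.0 CPM (log2 fold change 0.26, edgeR adjusted p = 0.0502). SNX5 and SNX6 had -0.08 and 0.14. SNX3 and SNX17, the cargo-binding partners of retromer and retriever, had 0.01 and 0.02.

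The WASH complex drives actin branching on endosomes. WASHC2A, which encodes a FAM21 subunit that tethers the complex to retromer, rose from 54.7, 51.8 and 52.1 CPM to 67.6, 72.3 and 63.3 CPM (log2 fold change 0.36, SE 0.07, edgeR adjusted p = 0.0132). Its near-identical copy WASHC2C was at 55.8, 53.4 and 54.8 CPM against 75.5, 76.5 and 72.5 CPM (log2 fold change 0.45, SE 0.07, edgeR adjusted p = 0.00273). How reads fitting both copies were counted is not given in the sources used here, so their division is uncertain, and the summed counts gave 0.41. WASHC3 stood at 0.24 on the log2 scale (edgeR adjusted p = 0.127), and the core subunits WASHC4 and WASHC5, both at -0.05, overlapped between groups.

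Early endosome tethers are long or FYVE-domain proteins that bind RAB5 or its lipid and bring membranes together. EEA1 rose from 120, 114 and 110 CPM to 135, 169 and 132 CPM (log2 fold change 0.34, SE 0.10, edgeR adjusted p = 0.0486). For EEA1, shEHD1+Dox replicate 2 stood above the other libraries, and without it the log2 fold change was 0.21 and did not pass. RUFY1 rose from 49.7, 48.6 and 45.6 CPM to 56.7, 62.3 and 54.4 CPM (log2 fold change 0.27, SE 0.08, edgeR adjusted p = 0.0473). Rabenosyn-5, encoded by RBSN, was at 68.8, 64.4 and 62.8 CPM against 57.0, 53.8 and 59.5 CPM without a call (log2 fold change -0.20, edgeR adjusted p = 0.0901). ANKFY1 had -0.15 with overlapping groups. RBSN shares 36.5% and EEA1 17.9% of exon bases with other genes.

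BIN1, which encodes the BAR-domain protein amphiphysin II, had the highest log2 fold change of the list. BIN1 (ENSG00000136717, chr2:127048027-127107288, minus strand) was at 7.90, 8.05 and 6.85 CPM in shNTC+Dox and at 13.5, 11.1 and 12.4 CPM in shEHD1+Dox. The mean rose from 7.60 ± 0.66 to 12.3 ± 1.19 CPM (SD, n = 3), an increase of 62.2% (log2 fold change 0.70, SE 0.13, edgeR adjusted p = 0.00881). It was also the gene with the lowest level per kilobase of annotated exons in the list. The fission GTPase DNM2 and the endophilin SH3GL1 had log2 fold changes of 0.01 and 0.16 with overlapping groups.

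On the recycling endosome, STX12, which encodes the SNARE syntaxin 13, rose from 45.6, 45.9 and 40.0 CPM to 55.7, 53.0 and 52.6 CPM (log2 fold change 0.29, SE 0.08, edgeR adjusted p = 0.0335). Another recycling SNARE gene, VAMP3, was at 125, 131 and 133 CPM against 146, 149 and 139 CPM and did not pass (log2 fold change 0.16, edgeR adjusted p = 0.121). The RAB11 effectors RAB11FIP1, RAB11FIP3 and RAB11FIP5 had 0.21, -0.06 and 0.24, and the GTPase ARF6 had 0.05. TFRC encodes the transferrin receptor, the usual reporter cargo of the recycling route. Its level was 336, 346 and 437 CPM in shNTC+Dox and 293, 399 and 325 CPM in shEHD1+Dox, with shNTC+Dox replicate 3 and shEHD1+Dox replicate 2 each the highest of its group and no difference detectable at this spread (log2 fold change -0.14, SE 0.14, edgeR adjusted p = 0.532).

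The plot of the 15 called genes by library shows how far apart the groups were in each.

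**Figure D2:**
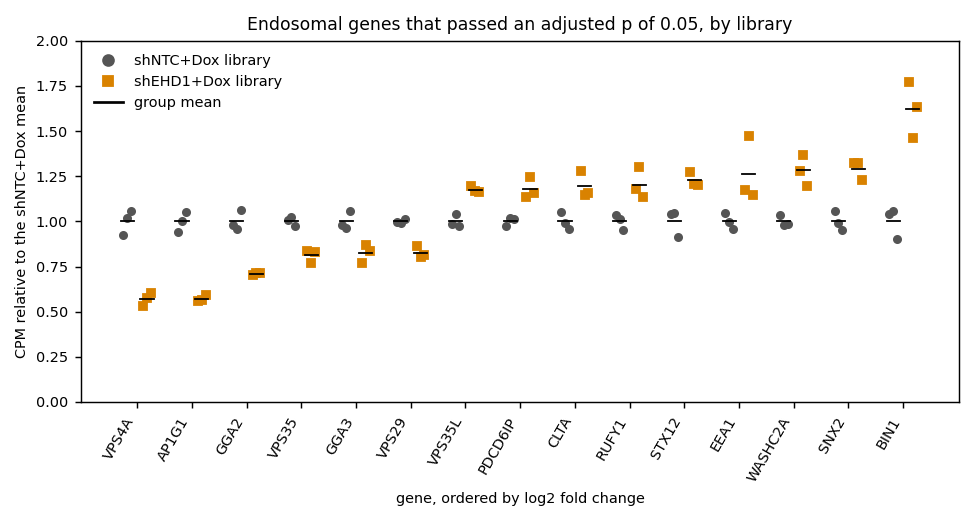
Level of each of the 15 called genes in each library, as its CPM divided by the mean of the 3 shNTC+Dox libraries (y axis, linear from 0); points are single libraries, 3 for each group, and lines the group means. VPS4A, AP1G1, GGA2 and BIN1 show the widest gaps, and the shEHD1+Dox library at 169 CPM of EEA1 stands above the other 2 of its group.

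Per-length levels, in CPM per kilobase of merged exons, spanned a wide range within the machinery. In shNTC+Dox the highest were CLTC at 80.8 ± 1.78, AP2M1 at 67.5 ± 2.75 and SNX3 at 64.0 ± 4.16, and the lowest BIN1 at 1.11 ± 0.10, VPS37A at 2.59 ± 0.28 and RAB11FIP5 at 2.77 ± 0.33 (SD, n = 3). CLTC stood above AP2M1 by more than their spread between libraries, whereas AP2M1 and SNX3 did not differ beyond theirs, nor did VPS37A and RAB11FIP5. Merged exons join all annotated transcripts of a gene and can be longer than the transcript expressed. The SD does not measure that, so the order between genes depends on the annotation. The genes at the top of this order, CLTC, AP2M1 and SNX3, were among those with log2 fold changes closest to 0.

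Because partners within a complex differed, the ratio of per-length levels within a library was computed for 10 pairs, which were chosen after the values had been seen. The ratio of VPS4A to VPS4B was 0.845, 0.857 and 0.881 in shNTC+Dox against 0.495, 0.497 and 0.606 in shEHD1+Dox, a log2 difference of -0.70 (SE 0.10). The ratio of AP1G1 to AP1M1 went from 2.79 ± 0.036 to 1.504 ± 0.052 (SD, n = 3), a log2 difference of -0.89 (SE 0.03). That of VPS35 to VPS26A went from 0.959 ± 0.069 to 0.714 ± 0.049. In these 3 pairs only the first gene was called, so the ratio mostly restates the change of that gene. GGA2 to GGA3 was lower in every shEHD1+Dox library, and CLTA to CLTB and SNX2 to SNX1 were higher in every one, with log2 differences of -0.21, 0.42 and 0.27. The groups overlapped for the other 4 pairs, SNX5 to SNX6, VPS26B to VPS26A, STAM to STAM2 and AP2A1 to AP2M1. With 3 libraries against 3, the exact two-sided permutation test cannot give a p below 0.1, which all 6 separated pairs reached (0.167 after adjustment over the 10 pairs). For pairs chosen after their values were seen, these p-values are descriptive only.

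**Figure D3:**
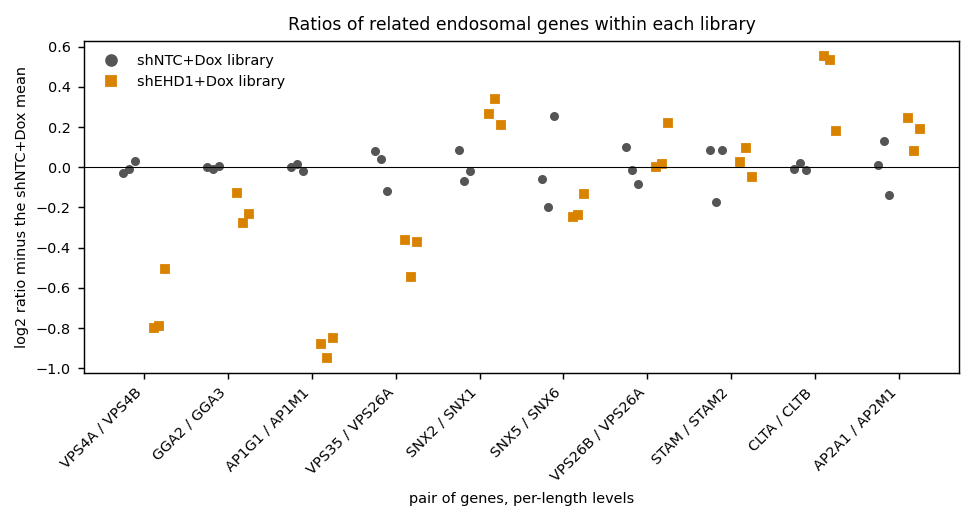
Ratio of per-length levels of 10 pairs of related genes in each library (y axis, log2 scale, relative to the mean of shNTC+Dox); points are single libraries, 3 for each group. The ratios of VPS4A to VPS4B, AP1G1 to AP1M1, GGA2 to GGA3 and VPS35 to VPS26A lie lower in all 3 shEHD1+Dox libraries, those of CLTA to CLTB and SNX2 to SNX1 higher, and the other 4 overlap.

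A 7-base word in the 3′ UTR was looked up in these genes because it marked transcripts that were lower in shEHD1+Dox in an earlier analysis of the same counts, which is therefore not independent of the values here. The word, AAGCTCT on the transcript strand, was searched in the 3′ UTR of one canonical GENCODE transcript for each gene. It was present in 14.03% of the 12971 tested genes whose 3′ UTR was 50 bases or longer. Of the 1820 genes with it, 19.8% were called lower and 7.20% higher, compared with 8.13% and 11.2% of the 11151 genes without it. The comparison took no account of UTR length, although a longer UTR is more likely to hold a 7-base word. The sequences are shown because 3 of the 6 genes called lower carry the word, among them both genes with the lowest log2 fold change. Each site is given on the transcript strand of GRCh38, with the word in capitals, for the called genes that carry it and then for EHD1, in which it lies in the coding sequence.
AP1G1, chr16:71729188-71729216, minus strand: gacagctaatgAAGCTCTaattattgcag
VPS35, chr16:46660138-46660166, minus strand: ggctactaatgAAGCTCTccttttttttg
VPS4A, chr16:69324798-69324826, plus strand: aaccccagcccAAGCTCTgcctcaaagac
CLTA, chr9:36211816-36211844, plus strand: cctactcagtgAAGCTCTtcacagtcatt
PDCD6IP, chr3:33868815-33868843, plus strand: cttaaataatgAAGCTCTgcatagaggaa
EHD1, chr11:64860017-64860045, minus strand: ccgacaaccgcAAGCTCTttgaggccgag

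Of the 57 genes, 10 held the word in this 3′ UTR (17.5%), and they moved in both directions. AP1G1, VPS35 and VPS4A fell, CLTA and PDCD6IP rose, and CCDC93, SNX1, SNX27, USP8 and VPS26A were not called. Among the 47 genes without it, 3 fell (GGA2, GGA3 and VPS29) and 7 rose. The median log2 fold change was 0.11 with the word and 0.14 without it. A match describes letters in one transcript, the sequence of the shRNA was not in the sources used here, and the part of the word in the changes was not tested.

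**Figure D4:**
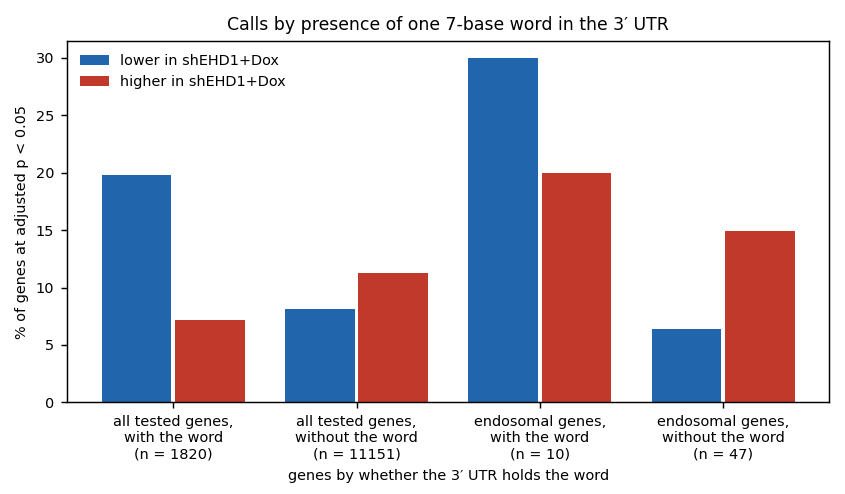
Percent of genes called lower and higher in shEHD1+Dox (y axis, from 0) among genes with and without AAGCTCT in the 3′ UTR, for all tested genes and for the 57 endosomal genes. UTR length was not taken into account. Over all tested genes 19.8% of carriers and 8.13% of the others were called lower, and among the 57 genes 3 of 10 and 3 of 47.

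The 4 genes with the lowest log2 fold changes, VPS4A, AP1G1, GGA2 and VPS35, all lie on chromosome 16, which also holds VPS35L, called higher, and RAB11FIP3, not called. Over the chromosome as a whole, 776 tested genes had a median log2 fold change of -0.04, with 5.41% called higher and 9.41% lower. Within 1 Mb the median was 0.02 over the 34 tested neighbours of VPS4A, -0.05 over the 16 of AP1G1, -0.04 over the 15 of GGA2 and 0.08 over the 10 of VPS35. Among these neighbours, 1 was called higher and 3 lower for VPS4A, and 0 higher and 3 lower for GGA2. For AP1G1 and for VPS35 there was 1 of each. The part of the location in the values of the 4 genes was not tested. On chromosome 10, by contrast, 19.6% of 638 tested genes were called higher and 5.33% lower, with a median of 0.11, and WASHC2A, VPS26A and STAM lie there with log2 fold changes of 0.36, 0.12 and 0.19. The part of this chromosome-wide shift in their values was not tested.

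The same routes were also examined through 130 further endosomal genes of the same roles, of which 124 were expressed highly enough to be tested. Of these, 25 rose (20.2%, beside 8.59% of all genes tested) and 8 fell (6.45%, beside 8.75%), with a median log2 fold change of 0.14. Without shEHD1+Dox replicate 1 the counts were 10 and 4, beside 3.76% and 4.39% of all genes, and without shEHD1+Dox replicate 3 they were 11 and 5, beside 3.91% and 4.15%. The rises included 7 of the 14 further sorting nexins, a group singled out after its values were seen: SNX7, SNX9, SNX10, SNX13, SNX14, SNX16 and SNX30, with log2 fold changes from 0.34 to 1.498. SNX10, a small nexin of endosomes, was hardly expressed, with 22, 10 and 8 counts in shNTC+Dox and 48, 35 and 41 counts in shEHD1+Dox (log2 fold change 1.498, SE 0.39, edgeR adjusted p = 0.0312). SNX30 was more precisely measured, with a log2 fold change of 0.67 (SE 0.09, edgeR adjusted p = 0.00185).

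In each of the other roles, the called gene with the largest change was mostly a rise. MYO5A, an actin motor that carries recycling vesicles, rose from a mean of 34.5 to 67.0 CPM (log2 fold change 0.95, SE 0.12, edgeR adjusted p = 0.00194). FCHO2, which starts clathrin-coated pits, rose from 7.41 to 11.99 CPM (log2 fold change 0.69, edgeR adjusted p = 0.00613). VPS37B of ESCRT-I rose by 0.52 on the log2 scale (edgeR adjusted p = 0.0104), beside the uncalled 0.20 of VPS37A. ZFYVE9, a FYVE-domain protein of early endosomes, rose by 0.49 (edgeR adjusted p = 0.00841) and SH3GLB1, endophilin B1, by 0.23 (edgeR adjusted p = 0.0384). COMMD9 of the CCC complex was the exception, falling from 36.8 to 25.7 CPM (log2 fold change -0.52, SE 0.12, edgeR adjusted p = 0.0203). The word AAGCTCT was in the 3′ UTR of 16 of the 124 genes, including 3 of the 8 that fell (COMMD2, COMMD9 and STX8) and 2 of the 25 that rose (SH3GLB1 and STAMBP). These counts were not tested against all genes.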

How the data were processed

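RNA of TC71 cells was sequenced in 3 shNTC+Dox and 3 shEHD1+Dox libraries, made with an unstranded TruSeq kit. The study's methods name hisat2, Ensembl annotation, hg38 and StringTie, whereas the submitters' processing notes name STAR 2.7.3a and DESeq2. The deposited values are whole-number counts per gene without normalization, and how the authors derived them, or treated reads fitting several genes, is not given in the sources used here. Counts were analysed with edgeR 4.0.16 in R 4.3.3: genes reaching 10 counts in 3 or more libraries, TMM factors, robust quasi-likelihood test, Benjamini-Hochberg adjustment over all 16785 genes. CPM are TMM-scaled. DESeq2 1.42.0 and the other alternatives are given at the end. Coordinates, merged exons and 3′ UTRs came from GENCODE 44 on GRCh38, in which 99.5% of identifiers were found, and the printed sites from hg38. Replicates of a group differed by more than sampling noise. Genes were named if called, among the 5 highest or lowest fold changes or the 3 highest or lowest levels, or sharing exons with another gene (35 genes); of the wider list, the largest called change of each role. SNX30, the other nexins and the further AP-1, epsin and ESCRT genes of the wider list were named after their values were seen. Members and lists were chosen with earlier results of these data known.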

Additional observations from a re-analysis of the deposited data

How the results depend on the processing

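The EHD1 decrease passed under every alternative run (log2 fold change -1.88 to -1.68 when single libraries were left out). Of the 57 genes, 9 higher and 6 lower became 8 and 6 with DESeq2 size factors, 11 and 7 with DESeq2's Wald test, 10 and 4 with no filter, 10 and 6 with at least 10 counts in every library, and, as an alternative chosen after seeing the data, 8 and 6 with genes sharing exons summed. Leaving out single libraries gave 1 to 9 higher and 3 to 7 lower, and 10 to 28 higher and 4 to 10 lower in the wider list. With a replicate block they were 3 higher and 3 lower, with 16 higher in the wider list, and calls over all genes fell to 1766. The numbers do not pair the libraries, since deviations of same-numbered libraries correlated at 0.072, -0.059 and -0.045. The count with a 2-fold change stayed 0, also with 2-fold tested in the model. The median log2 fold change was 0.14 without the filter, 0.11 with genes summed and 0.0899 to 0.13 when single libraries were left out. Of the 42 uncalled genes, 6 passed in at least 1 alternative. Signs changed in 12 uncalled genes: when single libraries were left out, SNX5 ran from -0.14 to 0.0304, VPS28 from -0.12 to 0.0123, WASHC5 from -0.15 to 0.0037, WASHC4 from -0.13 to 0.0159, SNX3 from -0.0412 to 0.0517, DNM2 from -0.0407 to 0.0319, SNX17 from -0.0430 to 0.0913, CLTC from -0.0542 to 0.0745, AP2M1 from -0.0017 to 0.0572, ARF6 from -0.00049 to 0.13 and CCDC22 from -0.0093 to 0.13. With genes sharing exons summed, WASHC4 was 0.13, SNX17 -0.0091 and VPS26B -0.0708. For WASHC4 and VPS26B, the gene added had more counts than the gene itself. The causes were not tested.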
